A study of Homo sapiens with 9 samples.

Results

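The genes described here are 41 transcriptional targets of the tumour suppressor p53, leaving out CDKN1A, the gene of the cell cycle inhibitor p21. They were taken from a table of 63677 genes by symbol on a primary chromosome, each matched 1 row, and all 41 passed the filter used for testing. By what their products do they were sorted by hand into 5 groups: feedback on p53 (5 genes), arrest and growth signalling (8), death and survival (15), DNA repair (4) and metabolism and organelles (9). Polyadenylated RNA was sequenced from HCT116, an established human colon carcinoma cell line, collected 48 h after small interfering RNAs (siRNAs) were introduced. The groups hold 3 libraries each: siRNF40 (labelled as RNF40 knockdown), siTG2 (labelled as TG2 knockdown) and siControl (labelled wild type). All 3 groups were transfected, and the depletions are transient knockdowns in a single cancer line.

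p53 is a transcription factor that cells keep scarce by constant degradation and stabilise when DNA or the ribosome is damaged. Its targets then slow the cell cycle, repair DNA, change metabolism or start cell death, and several of them, with MDM2 as the best known, switch p53 off again. RNF40 partners RNF20 in the enzyme that ubiquitinates histone H2B, a mark of transcribed genes. TG2 is the transglutaminase made from TGM2, and the study's title names its role in adding serotonin to histone H3.

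The libraries held 29161285 to 35743918 reads assigned to genes, and levels are given as the authors' normalized counts, in which 1 read is worth 0.88 to 1.1 units. These are not per gene length, so they are compared between libraries only. RNF40 stood at 535, 497 and 528 in siRNF40 against 3004, 2784 and 2565 in siControl, and TGM2 at 59.4, 121 and 155 in siTG2 against 559, 702 and 554 in siControl. The log2 fold changes were -2.42, SE 0.085, adjusted p = 5.3e-13 for RNF40 and -2.52, SE 0.23, adjusted p = 1.1e-07 for TGM2, each with p = 0.1 by exact permutation (two-sided), the smallest that 3 against 3 allows. RNF40 was also lower in siTG2, at 2249, 2506 and 2158 (-0.27, adjusted p = 0.019), a call that ended under 6 of the 20 alternatives. TGM2 stood above all siControl libraries in siRNF40, at 839, 830 and 963. That change was not called (0.54, adjusted p = 0.063), but was under 7 alternatives. Of 7 epithelial markers 6 were well expressed, with summed levels of 136000 to 164000 in siRNF40, 83500 to 94500 in siTG2 and 92200 to 101000 in siControl, while VIL1 was near 0. Of 7 fibroblast markers DCN and LUM were at 0 in every library, although COL1A1 was not, and 6 leukocyte markers summed to 7.47 to 19.4 in siRNF40, 28.3 to 55.6 in siTG2 and 18.8 to 23.8 in siControl. RN7SL2, a 7SL RNA gene, stood at 7842, 2759.9 and 2689 in siRNF40, 819.6, 2317 and 1505 in siTG2 and 1023, 812 and 910.1 in siControl, so siRNF40 replicate 1 stood apart in it. The part of these values in the results below was not tested.

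Depletion of RNF40 was accompanied by higher transcript levels of most of the 41 genes. Of them, 29 were called higher in siRNF40 than in siControl and 4 lower, with 8 not called. The 33 called genes are 80.5% of the set, against 45.3% of all genes tested. By direction, that is 70.7% higher and 9.76% lower, against 21.7% higher and 23.6% lower of all 17663 genes tested, and against 28.0% and 32.3% of the 10924 genes with a mean of at least 200, the level of 40 of the 41. A call is an adjusted p under 0.05 in limma, a linear model fitted to log2 of the normalized count plus 1 for all genes at once. The median log2 fold change was 0.592, against 0.0163 over all genes tested. In 31 genes every siRNF40 library stood above every siControl library (75.6%, against 26.4% of all genes tested), and in 4 every one stood below (9.76%, against 26.8%). The genes called higher by at least 2-fold numbered 7, against 3.53% of all genes tested: FDXR, BTG2, BBC3, RPS27L, PHLDA3, PLK3 and GDF15.

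Depletion of TG2 split the same genes. In siTG2, 9 were called higher than in siControl and 12 lower, with 20 not called. The shares are 22.0% higher and 29.3% lower, against 12.8% and 18.5% of all genes tested. Among genes with a mean of at least 200 the shares were 13.5% higher and 28.0% lower, so the share of lower calls among the targets was close to the background at their level. None of the 41 was called higher by at least 2-fold, against 3.46% of all genes tested. With only 41 genes, that cannot be told from so small a share. The 2-fold shares of any comparison were not computed for genes with a mean of at least 200. All siTG2 libraries lay above all siControl libraries in 14 genes (34.1%, against 20.5% of all genes tested) and below in 13 (31.7%, against 26.1%). The middle value of the log2 fold changes was 0.047, against -0.0069 over all genes tested. The siTG2 split depended on scaling. The authors' size factors leave siTG2 libraries with smaller totals, of 28.81 to 29.45 in units of 1e+06 normalized counts, against 32.12 to 32.4 in siControl. With libraries scaled to equal totals, which moved the median of all genes to 0.136, 16 targets were called higher and 7 lower, and with quantile normalization 14 and 8. The calls over all genes moved too, with equal totals to 3879 higher and 1890 lower, against 2263 and 3270 in the main fit. The main-fit shares are therefore not the background of the rescaled counts.

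Set directly against siTG2, 36 of the 41 genes were called (87.8%, against 53.3% of all genes tested). Of the set, 30 were called higher in siRNF40 and 6 lower, against 26.6% of all genes tested in each direction, or 36.4% and 31.5% of those with a mean of at least 200. The median log2 fold change was 0.477, against -0.0144 over all genes tested. A change of at least 2-fold upward was called in 11, against 5.69% of all genes tested. Downward it was called in 1, PANK1, and the share over all genes was not computed for that direction. In 29 genes all siRNF40 libraries lay above all siTG2 libraries (70.7%, against 29.0%), and in 4 below (9.76%, against 29.3%). This contrast compares the knockdowns without the siControl mean that the other comparisons share, while the siControl libraries still enter the estimate of spread. With equal totals, which moved the median of all genes to -0.191, the calls were 21 higher and 6 lower, and with quantile normalization 26 and 6. The calls over all genes moved too. Over the 20 alternatives they ranged from 3278 to 4778 higher and 4115 to 6343 lower, against 4704 and 4706 in the main fit. The main-fit shares are therefore not the background of the rescaled counts.

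**Figure D1:**
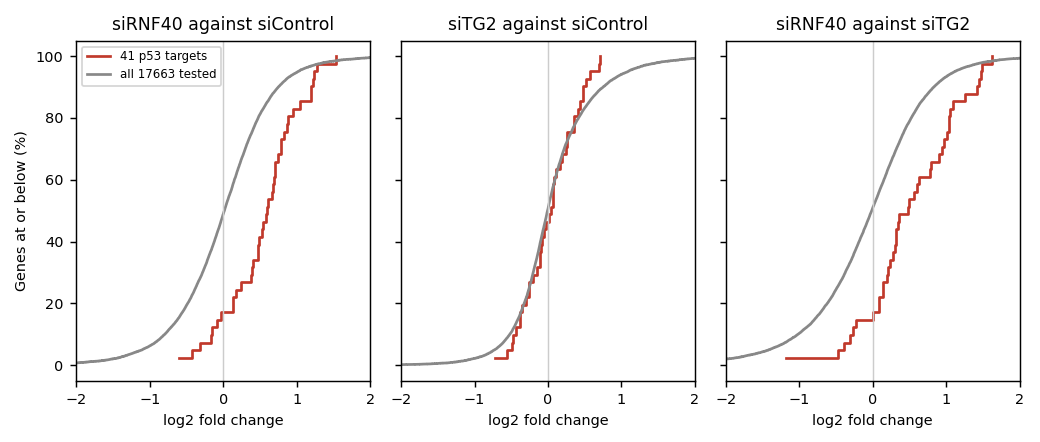
Cumulative share of genes (y axis, percent) at or below a log2 fold change (x axis), for the 41 p53 targets in red and all 17663 genes tested in grey. The p53 targets lie to the right of all genes in siRNF40 against siControl (medians 0.592 and 0.0163) and in siRNF40 against siTG2 (0.477 and -0.0144), and close to them in siTG2 against siControl (0.047 and -0.0069).

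The promoters of the targets were searched for the sequence that p53 binds, which does not come from these libraries. The genes were chosen as p53 targets, so the sequence is not independent of that choice. The stretches that hold it are shown. p53 recognises a pair of 10-base elements, and the consensus of 1 such element, which reads the same on both strands, occurs in 4 of the 33 promoters found in the RefSeq table (12.1%), against 6.54% of all 27305 promoters of the same length. Each window runs from 250 bases before to 50 after the start site in build GRCh38.p14. A pair of elements up to 13 bases apart was in 0 of the 33 and in 0.0293% of all promoters. That search allowed no mismatch. With at most 2 mismatches, 2 directly adjacent elements were in 1 of the 33, AEN, and in 173 of the 27305. The 4 stretches of 60 bases are printed 5′ to 3′ on the gene's own strand with the element in capitals, at chr5:58460184-58460243 (minus strand) for PLK2, chr15:88621281-88621340 (plus) for AEN, chr15:63157502-63157561 (minus) for RPS27L and chr17:74872971-74873030 (minus) for FDXR.
PLK2: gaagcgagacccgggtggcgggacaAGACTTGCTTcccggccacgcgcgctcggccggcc
AEN: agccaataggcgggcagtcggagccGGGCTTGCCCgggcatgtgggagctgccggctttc
RPS27L: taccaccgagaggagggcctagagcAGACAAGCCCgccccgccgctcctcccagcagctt
FDXR: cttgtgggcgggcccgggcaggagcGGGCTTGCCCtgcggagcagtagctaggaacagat
The element begins 132, 34, 59 and 11 bases before the start in PLK2, AEN, RPS27L and FDXR, and AEN and FDXR hold the same 10 letters. All 4 genes were called higher in siRNF40 and none of them was called in siTG2, although with equal totals PLK2 and FDXR were called higher there. Of all 41 targets, 70.7% were called higher in siRNF40, and 31.7% were higher there and not called in siTG2. Whether the element has a part in these calls was not tested. A match of letters is a description and not a bound site, and its absence from a window says nothing of sites elsewhere in a gene.

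The feedback genes rose together in siRNF40. All 5 were called higher in siRNF40 than in siControl (median log2 fold change 0.539), whereas in siTG2, 2 were called lower and 3 not called. Of genes with a mean of at least 200, 28.0% were called higher in siRNF40. In siTG2 the 2 are 40.0% of the group, against 28.0% called lower at that level. MDM2 (ENSG00000135679, chromosome 12, 69201956 to 69239214, plus strand, build hg19 as are all gene positions here) encodes the ubiquitin ligase that marks p53 for degradation. Its counts were 11587, 11617 and 10101 in siRNF40, 5722, 5089 and 5446 in siTG2 and 7930.2, 7176 and 7785 in siControl. The 3 groups did not overlap, with siRNF40 highest and siTG2 lowest, at log2 fold changes of 0.54, SE 0.07, adjusted p = 4e-06 in siRNF40 and -0.49, SE 0.07, adjusted p = 2.4e-05 in siTG2. PPM1D, the phosphatase WIP1 that reverses damage-induced phosphorylation of p53 and of the kinases upstream, showed the same order with 2958, 3097 and 2819.9 in siRNF40, 1050.5, 997 and 1229 in siTG2 and 1703, 1504 and 1622 in siControl. It changed by 0.88 in siRNF40 (SE 0.086, adjusted p = 1.3e-07) and by -0.56 in siTG2 (SE 0.086, adjusted p = 5.8e-05). The siTG2 calls of MDM2 and PPM1D held under each of the 20 alternatives, with adjusted p of at most 0.00072 and 0.001.

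The other feedback genes were called in siRNF40 and not in siTG2. FBXO22, an F-box protein of a ubiquitin ligase, had 2658, 3272 and 2901 in siRNF40, 2141, 2097 and 2082 in siTG2 and 1908, 1984 and 1945 in siControl, with siRNF40 above both other groups (log2 fold change 0.59, SE 0.077, adjusted p = 4.2e-06). CCNG1, the atypical cyclin G1, was at 3850.1 ± 372 in siRNF40, 3174 ± 155 in siTG2 and 2777 ± 186 in siControl (SD, n = 3), a change of 0.47, adjusted p = 6.6e-05 in siRNF40. MDM4, the relative of MDM2 that masks the activation domain of p53, rose least of the 5, by 0.38, adjusted p = 6.2e-05. In siTG2 these 3 had log2 fold changes of 0.11, 0.19 and 0.073, none of them called. All siTG2 libraries of the 3 genes lay above all siControl libraries, and with equal totals or quantile normalization each was called higher (log2 fold changes of 0.22 to 0.34, adjusted p of 0.0021 to 0.023).

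**Figure D2:**
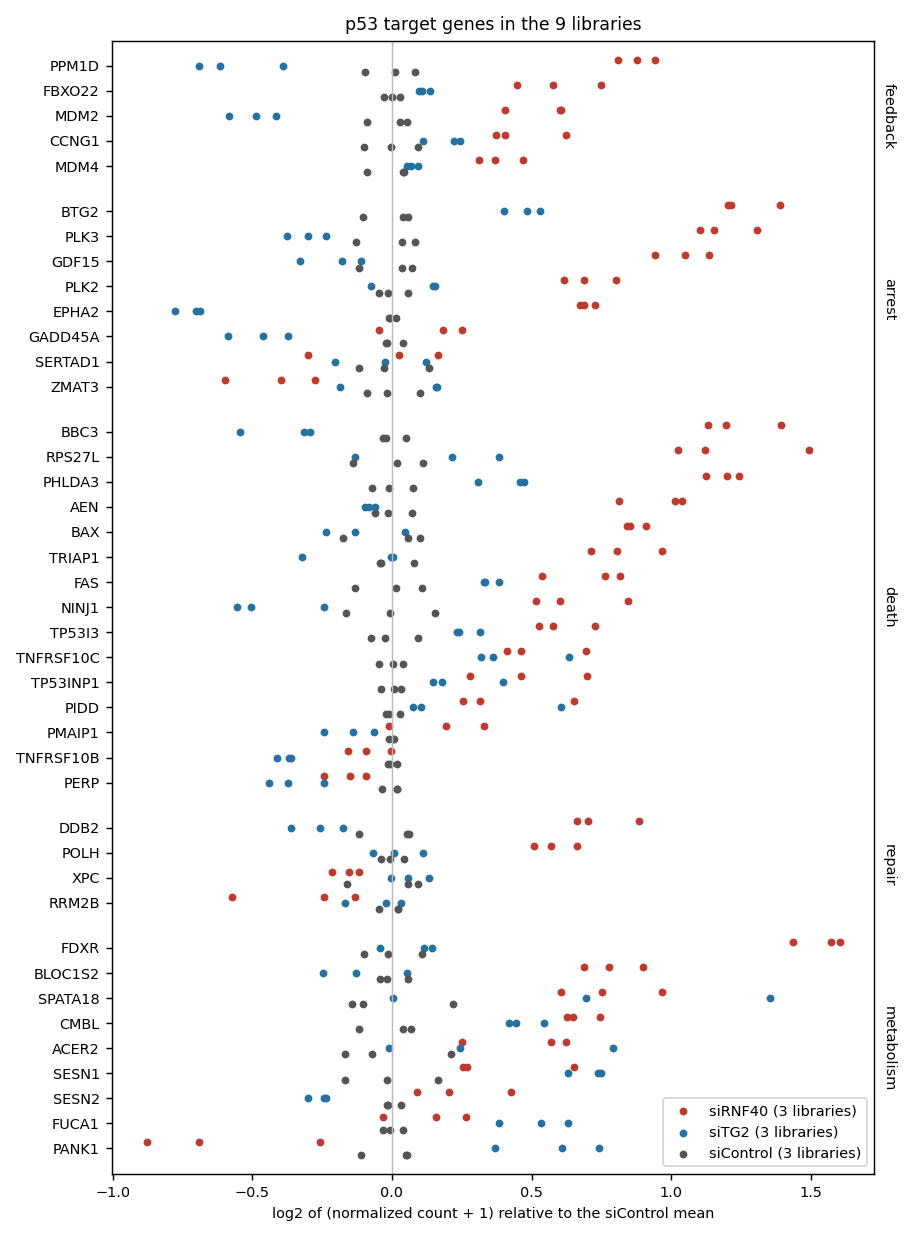
Each p53 target gene (rows, grouped by function) in each of the 9 libraries, as log2 of the normalized count plus 1 relative to the siControl mean (x axis); red points are siRNF40, blue siTG2 and grey siControl, 3 libraries each. In 31 of the 41 rows all red points lie to the right of all grey points, and in 4 all lie to the left.

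Among genes of arrest and growth signalling, 5 of 8 were called higher and 1 lower in siRNF40 (median 0.699), and 1 higher and 4 lower in siTG2 (median -0.118). Of genes with a mean of at least 200, 28.0% were called higher and 32.3% lower in siRNF40. In siTG2 the shares at that level were 13.5% and 28.0%, so 1 higher call among 8 genes was close to the background. BTG2, an antiproliferative cofactor of mRNA deadenylation, had 4096, 3594 and 3621 in siRNF40, 2184, 2256 and 2061 in siTG2 and 1607, 1624 and 1454 in siControl. It was higher in both knockdowns and the groups did not overlap, with log2 fold changes of 1.27, SE 0.076, adjusted p = 2.2e-10 in siRNF40 and 0.47, SE 0.076, adjusted p = 0.0001 in siTG2. PLK3, a stress-responsive polo-like kinase, had 5166, 5344 and 5941 in siRNF40, 2041, 1849.6 and 1949 in siTG2 and 2542, 2199 and 2464 in siControl. It changed in opposite directions, by 1.19 in siRNF40 (adjusted p = 5e-10) and -0.30 in siTG2 (adjusted p = 0.0052), and the siTG2 call ended with quantile normalization (-0.17, adjusted p = 0.11) and equal totals (-0.16, 0.14). Its relative PLK2 rose in siRNF40 (0.70, adjusted p = 3.7e-07) and stood at 0.076 in siTG2 (adjusted p = 0.48).

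GDF15, a secreted stress cytokine of the TGF-beta family, had 51895, 48271 and 55139 in siRNF40, 19969, 23233 and 22191 in siTG2 and 25743, 26414 and 23139 in siControl. All siRNF40 libraries lay above all others, while siTG2 and siControl overlapped, and the log2 fold changes were 1.04, SE 0.071, adjusted p = 1e-09 in siRNF40 and -0.20, SE 0.071, adjusted p = 0.035 in siTG2. The siTG2 call of GDF15 ended under 9 of the 20 alternatives, among them without siTG2 replicate 1 (-0.14, adjusted p = 0.17), siTG2 replicate 3 (-0.22, 0.068), siControl replicate 1 (-0.18, 0.13) or siControl replicate 2 (-0.17, 0.16), and with quantile normalization (-0.053, 0.59) or equal totals (adjusted p = 0.54). EPHA2, a receptor tyrosine kinase of epithelial cells, had 35669, 36025 and 37007 in siRNF40, 13878, 13065 and 13759 in siTG2 and 22229, 22591 and 22281 in siControl. The EPHA2 libraries of each group lay close together and the groups did not overlap, with changes of 0.70, SE 0.054, adjusted p = 6.6e-09 in siRNF40 and -0.72, SE 0.054, adjusted p = 8.9e-09 in siTG2. With quantile normalization the siRNF40 change of EPHA2 was 0.46, adjusted p = 2.2e-06. The siTG2 change of EPHA2 was the largest decrease among the 41 genes in that comparison.

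GADD45A, a growth arrest protein that binds PCNA, had 12813, 12232 and 10419 in siRNF40, 7169.6, 8307 and 7825 in siTG2 and 10630.3, 11068 and 10596 in siControl. Here the siTG2 libraries lay below all others (-0.47, SE 0.074, adjusted p = 7.8e-05), and siRNF40 overlapped siControl (0.13, adjusted p = 0.17; without siRNF40 replicate 3, 0.22, adjusted p = 0.01). ZMAT3, a zinc finger protein that binds RNA, went the other way from most targets, at 1596 ± 177 in siRNF40, 2213 ± 294 in siTG2 and 2132 ± 143 in siControl (SD, n = 3), with a change of -0.42, adjusted p = 0.0019 in siRNF40. SERTAD1, a CDK4-binding protein, was at 1061 ± 169.6 in siRNF40, 1057 ± 119 in siTG2 and 1079 ± 95.6 in siControl, with log2 fold changes of -0.033 in siRNF40 and -0.032 in siTG2 (SE 0.12 and 0.12), neither of them called.

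Most death and survival genes were higher in siRNF40 than in either other group. In siRNF40, 12 of 15 were called higher and 1 lower (median 0.661), in siTG2, 4 higher and 4 lower (median -0.079), and in siRNF40 against siTG2 13 higher and none lower, the other 2 at positive changes that were not called. The siRNF40 shares are 80.0% and 6.67%, against 28.0% and 32.3% of genes with a mean of at least 200. In siTG2 they are 26.7% each, against 13.5% and 28.0%, so the lower calls were close to that background. The direct contrast gives 86.7% higher, against 36.4%. BBC3, the BH3-only protein PUMA that frees BAX and BAK to open mitochondria, had 2759, 2641 and 3169 in siRNF40, 826, 983 and 968 in siTG2 and 1248, 1179.7 and 1187 in siControl. The siRNF40 libraries stood at 2.37 times the siControl mean and the siTG2 libraries at 0.768 times, without overlap, and the log2 fold changes were 1.24, SE 0.09, adjusted p = 2.3e-09 in siRNF40 and -0.38, SE 0.09, adjusted p = 0.0028 in siTG2. The direct contrast of 1.62 (SE 0.09, adjusted p = 3.3e-11) was the largest among the 41 genes. BAX, the pore-forming effector itself, rose by 0.87, adjusted p = 4.1e-07 in siRNF40 and was at -0.10 in siTG2 (adjusted p = 0.45). PMAIP1, the BH3-only protein NOXA, was not called in siRNF40 (0.17, adjusted p = 0.076) or siTG2 (-0.15, adjusted p = 0.15), though without siRNF40 replicate 3 it was called at 0.26, adjusted p = 0.0032.

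The death receptors differed in their calls. TNFRSF10B, the TRAIL receptor DR5, was at 27212 ± 1460.3 in siRNF40, 22132 ± 426 in siTG2 and 28808 ± 338 in siControl (SD, n = 3). It fell in siTG2 (-0.38, adjusted p = 4.4e-05) and was not called in siRNF40 (-0.084, adjusted p = 0.25), and with quantile normalization it was called lower in siRNF40 too (-0.29, adjusted p = 0.00018). TNFRSF10C, a TRAIL decoy receptor without a death domain, had 365, 428 and 352 in siRNF40, 411, 341 and 330.4 in siTG2 and 272, 256 and 265 in siControl, with both knockdowns above siControl (0.52, adjusted p = 0.0036 in siRNF40; 0.44, adjusted p = 0.018 in siTG2). Its siTG2 call ended without siTG2 replicate 1 (0.34, adjusted p = 0.1) or siControl replicate 2 (0.42, 0.056). FAS, the receptor of FAS ligand, rose in siRNF40 (0.71, adjusted p = 1.4e-05) and in siTG2 (0.35, adjusted p = 0.013; without siControl replicate 3, 0.29, 0.071). PIDD, the scaffold that activates caspase-2, was at 554, 531 and 699 in siRNF40, 478, 678 and 469 in siTG2 and 454, 438 and 442 in siControl. Its siRNF40 change (0.41, adjusted p = 0.024) lost the call without siRNF40 replicate 3 (0.29, 0.12) or any siControl replicate (0.40 to 0.42, adjusted p of 0.05 to 0.059). PIDD overlaps RPLP2, a ribosomal protein gene on the other strand whose mean count of 15300 is 2900% of that of PIDD, and RPLP2 had a log2 fold change of 0.72 in siRNF40. How strand was handled in counting is not given in the sources used here, so reads of the pair may not be separable.

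Further genes of this group rose in siRNF40. PHLDA3, a pleckstrin-domain inhibitor of AKT signalling, had 2193, 2016 and 2127 in siRNF40, 1145, 1285 and 1272 in siTG2 and 880.2, 976 and 919 in siControl, rising in siRNF40 (1.19, SE 0.082, adjusted p = 1.2e-09) and in siTG2 (0.41, SE 0.082, adjusted p = 0.00071), higher in siRNF40 than in siTG2 (0.78, adjusted p = 1.9e-07), with no overlap between groups. RPS27L, a close relative of ribosomal protein S27, had 3593, 2772 and 2590.4 in siRNF40, 1163, 1664 and 1481 in siTG2 and 1289.9, 1375 and 1157 in siControl and a change of 1.22, SE 0.12, adjusted p = 2.1e-07 in siRNF40, with siRNF40 replicate 1 the highest. Without that library the change was 1.08, adjusted p = 1.8e-06. Whether reads of the related RPS27 or its pseudogenes were counted here was not examined, so the value is uncertain in that respect. NINJ1, a membrane protein that ruptures the plasma membrane in dying cells, had 1335, 1255 and 1581 in siRNF40, 597, 742 and 619 in siTG2 and 874, 978 and 784 in siControl. It rose in siRNF40 (0.66, SE 0.11, adjusted p = 8.7e-05) and fell in siTG2 (-0.43, SE 0.11, adjusted p = 0.0067), the siTG2 call ending with equal totals (-0.29, adjusted p = 0.057).

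AEN, an exonuclease of apoptotic DNA breakdown, rose by 0.96, adjusted p = 3.6e-09 in siRNF40, and TRIAP1, a small mitochondrial protein that protects from apoptosis, by 0.83, adjusted p = 9.5e-07; neither was called in siTG2 (-0.079 and -0.11). TP53I3, a quinone oxidoreductase, and TP53INP1, a nuclear stress protein that aids p53 phosphorylation, rose in siRNF40 by 0.61 and 0.48 (adjusted p = 1.9e-05 and 0.00031). In siTG2 TP53I3 was called higher (0.26, adjusted p = 0.033), a call that ended without any one of the siTG2 replicates or of siControl replicates 2 and 3 (0.23 to 0.28, adjusted p of 0.058 to 0.12), and TP53INP1 was at 0.24, adjusted p = 0.055, just short of a call that it reached under 11 of the 20 alternatives, edgeR and DESeq2 among them (lowest adjusted p = 0.0033). PERP, a tetraspan protein of desmosomes, was the member of the group that was lower in siRNF40 (-0.16, adjusted p = 0.048) and it was lower in siTG2 too (-0.35, adjusted p = 0.00034). Its siRNF40 call ended under 10 of the 20 alternatives, DESeq2, quantile normalization and the replicate block among them. Among the 10 were also the fits without siRNF40 replicate 1 (-0.12, 0.18), siRNF40 replicate 3 (-0.17, 0.052) or any of the siControl replicates (-0.18 to -0.15, adjusted p of 0.074 to 0.13). The siTG2 call of PERP held under every alternative.

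**Figure D3:**
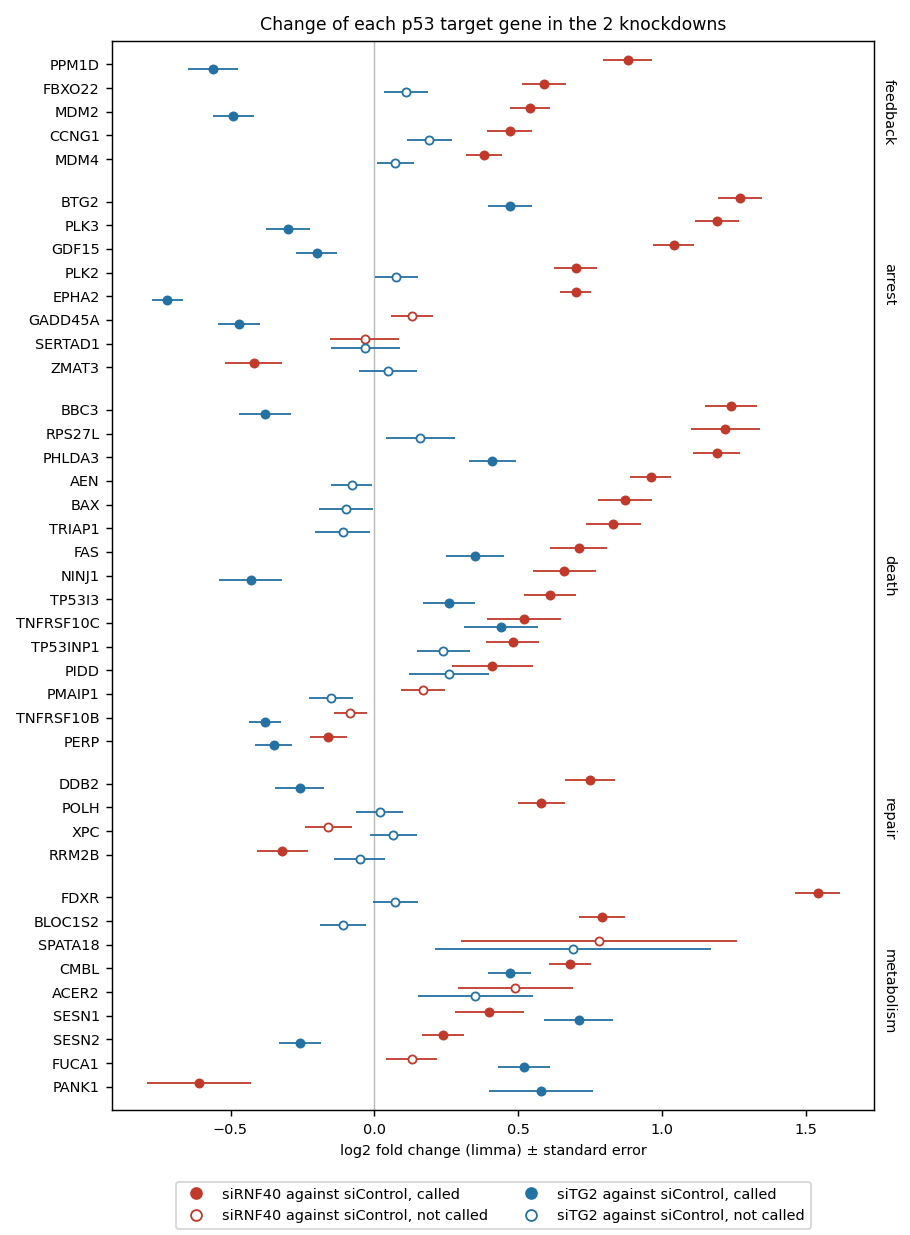
Log2 fold change of each p53 target against siControl (x axis) with limma's standard error as the bar, siRNF40 in red above siTG2 in blue within each row; filled points were called at an adjusted p under 0.05. Red points run from -0.61 (PANK1) to 1.54 (FDXR) and blue ones from -0.72 (EPHA2) to 0.71 (SESN1); both comparisons share the siControl libraries.

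Of the 4 DNA repair genes, 2 were called higher, 1 lower and 1 not called in siRNF40 (median 0.212). In siTG2, 1 was called lower and 3 not called (median -0.017). Among genes with a mean of at least 200, 28.0% were called higher and 32.3% lower in siRNF40, and 13.5% and 28.0% in siTG2. With only 4 genes, these counts cannot be told from such shares. DDB2, the subunit that recognises ultraviolet damage in chromatin, had 2247, 2190.2 and 2549.9 in siRNF40, 1225, 1155 and 1076 in siTG2 and 1433, 1441 and 1273 in siControl. It rose in siRNF40 (0.75, SE 0.086, adjusted p = 8.6e-07) and fell in siTG2 (-0.26, SE 0.086, adjusted p = 0.026), and the siTG2 call ended without siTG2 replicate 3 (-0.21, adjusted p = 0.12), siControl replicate 1 (-0.23, 0.1) or siControl replicate 2 (-0.23, 0.1), with quantile normalization (-0.16, 0.19) and with equal totals (-0.12, 0.32). POLH, the translesion polymerase eta, had 1691, 1801 and 1621 in siRNF40, 1230.4, 1086 and 1145 in siTG2 and 1174, 1107 and 1133 in siControl, with siRNF40 above both other groups (0.58, SE 0.081, adjusted p = 1e-05) and no call in siTG2 (0.018, adjusted p = 0.9). It overlaps GTPBP2 on the other strand, whose mean count is 597% of that of POLH, with a log2 fold change of -0.04 in siRNF40 and -0.35 in siTG2. RRM2B, the p53-induced subunit of ribonucleotide reductase, had 5066, 5462 and 4032 in siRNF40, 6130.4, 5335 and 5904 in siTG2 and 6082, 5805 and 6087 in siControl. Its siRNF40 libraries lay below all siControl libraries and overlapped siTG2 (-0.32, SE 0.088, adjusted p = 0.0067) and siTG2 was not called (-0.051, adjusted p = 0.7). XPC, which starts nucleotide excision repair, was at -0.16 in siRNF40 (adjusted p = 0.13; without siControl replicate 2, -0.24, 0.036) and 0.066 in siTG2 (adjusted p = 0.58). XPC overlaps LSM3 on the other strand, whose mean count is 47.7% of its own. FAS, TP53I3, TP53INP1 and RPS27L likewise overlap genes on the other strand with 13.1% to 20.7% of their counts.

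In the metabolic and organelle group, 5 of 9 genes were called higher and 1 lower in siRNF40 (median 0.491), and 4 higher and 1 lower in siTG2 (median 0.471). The siRNF40 shares are 55.6% and 11.1%, against 28.0% and 32.3% of genes with a mean of at least 200. In siTG2 they are 44.4% and 11.1%, against 13.5% and 28.0%. FDXR, the mitochondrial reductase that feeds electrons to steroid and iron-sulfur cluster synthesis, had 5936, 5399.5 and 6070.0 in siRNF40, 1938, 2204 and 2160.0 in siTG2 and 1978, 2149.6 and 1864 in siControl. It showed the largest change of the 41 genes in siRNF40 (1.54, SE 0.077, adjusted p = 1.8e-11) and overlapped siControl in siTG2 (0.073, adjusted p = 0.51). BLOC1S2, a subunit of the complex that builds lysosome-related organelles, had 5162, 4746 and 4457 in siRNF40, 2329, 2869 and 2532 in siTG2 and 2687, 2882 and 2730.2 in siControl and followed the same pattern (0.79, SE 0.08, adjusted p = 1.9e-07 in siRNF40; -0.11, adjusted p = 0.34 in siTG2). CMBL, a cytosolic hydrolase, had 2747, 2985 and 2790.0 in siRNF40, 2417, 2376 and 2595 in siTG2 and 1829, 1866 and 1640.4 in siControl and rose in both knockdowns, by 0.68, adjusted p = 5.2e-07 in siRNF40 and 0.47, adjusted p = 8e-05 in siTG2.

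The sestrins, which sense leucine and restrain the growth kinase mTORC1, parted in siTG2. SESN1 had 584, 762 and 578 in siRNF40, 815, 809.5 and 751 in siTG2 and 432, 544 and 479 in siControl, rising in siRNF40 (0.40, SE 0.12, adjusted p = 0.012) and in siTG2 (0.71, SE 0.12, adjusted p = 0.00017), the largest increase of the 41 genes in siTG2. SESN2 was at 8324 ± 1005 in siRNF40, 5862 ± 142 in siTG2 and 7016 ± 135 in siControl (SD, n = 3), higher in siRNF40 (0.24, adjusted p = 0.011) and lower in siTG2 (-0.26, adjusted p = 0.01). The siRNF40 call of SESN1 ended without siRNF40 replicate 2 (0.27, adjusted p = 0.079) or siControl replicate 1 (0.32, 0.071), that of SESN2 without siRNF40 replicate 3 (0.15, 0.059), and the siTG2 call of SESN2 with quantile normalization (-0.083, 0.44) and equal totals (-0.12, 0.25).

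PANK1, a pantothenate kinase of coenzyme A synthesis, had 183, 135 and 118 in siRNF40, 283, 366 and 333 in siTG2 and 202, 227 and 226 in siControl. As to calls it was the single gene of the 41 lower in siRNF40 and higher in siTG2, with its lowest levels in siRNF40 (-0.61, SE 0.18, adjusted p = 0.0084) and its highest in siTG2 (0.58, SE 0.18, adjusted p = 0.017), and its direct contrast was -1.18, adjusted p = 1.3e-05. The siTG2 call of PANK1 ended without siTG2 replicate 2 (0.49, adjusted p = 0.078), siTG2 replicate 3 (0.56, 0.057) or siControl replicate 1 (0.52, 0.068). FUCA1, the lysosomal alpha-fucosidase, had 1282, 1462 and 1576 in siRNF40, 1709, 1901 and 2029 in siTG2 and 1305, 1282 and 1347 in siControl and rose in siTG2 (0.52, SE 0.089, adjusted p = 0.0002) with no call in siRNF40 (0.13, adjusted p = 0.25). ACER2, a Golgi ceramidase, was at 257, 248 and 199 in siRNF40, 289, 165 and 197 in siTG2 and 148, 158 and 193 in siControl, and missed the threshold in siRNF40 (0.49, adjusted p = 0.052) and in siTG2 (0.35, adjusted p = 0.2). It passed in siRNF40 under 8 alternatives, among them without siRNF40 replicate 3 (0.61, adjusted p = 0.028) or siControl replicate 3 (0.60, 0.039). SPATA18, a mitochondrial quality control protein with the lowest counts of the 41, was at 21.4, 25 and 19.2 in siRNF40, 33, 12.3 and 20.5 in siTG2 and 11, 11.4 and 14.5 in siControl, too few reads for a call at log2 fold changes of 0.78 and 0.69 (SE 0.48 and 0.48).

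Across the groups of function, 9 genes were called higher in siRNF40 and lower in siTG2: BBC3, DDB2, EPHA2, GDF15, MDM2, NINJ1, PLK3, PPM1D and SESN2. They are 22.0% of the 41, against 5.15% of all genes tested and 7.95% of those with a mean of at least 200. A further 7 (17.1%, against 3.57% and 4.22%) were called higher in both knockdowns, namely BTG2, CMBL, FAS, PHLDA3, SESN1, TNFRSF10C and TP53I3. Higher in siRNF40 and not called in siTG2 were 13 (31.7%, against 12.9% and 15.9%), and 5 were called in neither (12.2%, against 41.3% of all genes tested). That last share was not computed for genes with a mean of at least 200. For each of the 9, the direct contrast of siRNF40 against siTG2 was called under every alternative tried. Its log2 fold changes were 0.50 (SESN2) to 1.62 (BBC3). The contrast is the difference of the 2 changes by which these genes were picked. It therefore follows from the choice and adds no separate evidence. The siTG2 decrease held under every alternative for 4 of the 9: BBC3, EPHA2, MDM2 and PPM1D. Both comparisons share the siControl libraries. Because the RNA is from whole cultures, a lower level in every cell and fewer cells with the transcript cannot be told apart.

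**Figure D4:**
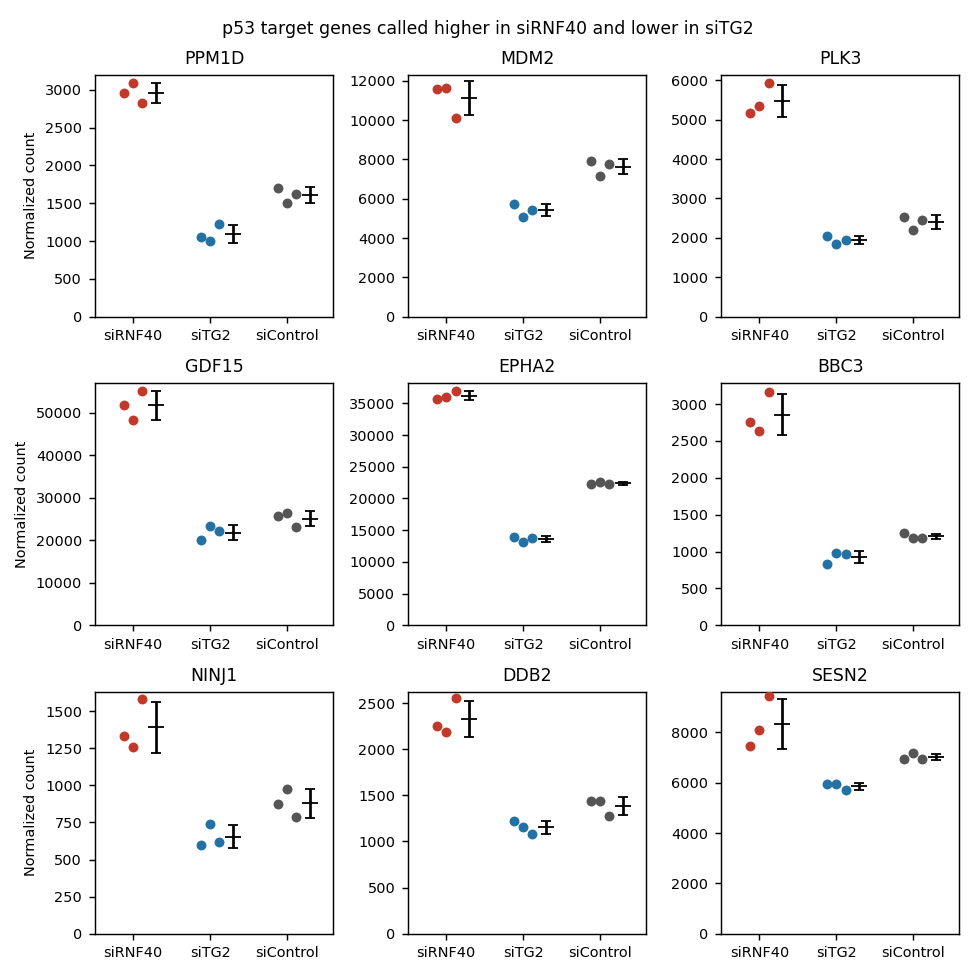
Normalized counts (y axis, from 0) of the 9 p53 targets called higher in siRNF40 and lower in siTG2; coloured points are single libraries (3 a group), and the black bars beside them the mean ± SD. The siRNF40 points lie above all others in each panel, and siTG2 points lie below siControl points in all panels but that of GDF15, where they overlap.

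The genes upstream of p53 and its other targets were counted from lists of textbook members. Of 30 regulators and partners of p53, 29 were tested; 3 were called higher and 12 lower in siRNF40 (median -0.165), and 2 higher and 8 lower in siTG2 (median -0.121). As shares of the 30 these are 10.0% and 40.0% in siRNF40, against 21.7% and 23.6% of all genes tested, and 6.67% and 26.7% in siTG2, against 12.8% and 18.5%. The share of lower calls in siTG2 is close to the 28.0% among genes with a mean of at least 200. In siRNF40 the shares at that level were 28.0% higher and 32.3% lower. RPL5 and RPL11, ribosomal proteins that can bind MDM2, rose in siRNF40 (0.57, adjusted p = 4.9e-07 and 0.78, adjusted p = 1.3e-06). In siTG2 RPL5 fell (-0.31, adjusted p = 0.00094; with quantile normalization, -0.10, 0.15) and RPL11 was not called (-0.12, adjusted p = 0.35). TP73, a relative of p53, fell in siRNF40 (-1.34, adjusted p = 1.1e-07) and siTG2 (-0.57, adjusted p = 0.0023), as did USP7, which removes ubiquitin from MDM2 and p53 (-0.44, adjusted p = 6.7e-06 and -0.47, adjusted p = 7e-06). SIRT1, a deacetylase of p53, fell in siRNF40 (-0.98, adjusted p = 8.2e-07) and in siTG2 (-0.34, adjusted p = 0.027). The siTG2 call of SIRT1 ended with quantile normalization (-0.21, adjusted p = 0.15) or equal totals (-0.19, 0.18), and without siTG2 replicate 1 or 2 or siControl replicate 3 (-0.32 to -0.27, adjusted p of 0.063 to 0.12). The checkpoint kinase CHEK1 fell in siRNF40 (-0.88, adjusted p = 3.7e-08). CREBBP, an acetyltransferase that p53 recruits, fell in siTG2 (-0.70, adjusted p = 2.6e-07).

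Of 37 other p53 targets, among them CDKN1A, 36 were tested. In siRNF40, 15 were called higher and 7 lower (median 0.228), and in siTG2, 5 higher and 9 lower (median -0.02). As shares of the 37 these are 40.5% and 18.9% in siRNF40, against 21.7% and 23.6% of all genes tested, and 13.5% and 24.3% in siTG2, close to the 13.5% and 28.0% among genes with a mean of at least 200. At that level the siRNF40 shares were 28.0% higher and 32.3% lower. CDKN1A stood at 79474, 67900.3 and 75569.9 in siRNF40, 20456, 22657 and 20781 in siTG2 and 21721, 21949.6 and 21029.9 in siControl, a change of 1.78, adjusted p = 5.3e-13 in siRNF40. In siTG2 it was at -0.019, adjusted p = 0.86, and with quantile normalization at 0.16, adjusted p = 0.044. SFN, the 14-3-3 sigma protein of the G2 checkpoint, rose in siRNF40 (0.71, adjusted p = 1.2e-06) and fell in siTG2 (-1.21, adjusted p = 2.8e-09), as did TNFRSF10D, a further TRAIL decoy receptor (0.48, adjusted p = 3.4e-05 and -0.86, adjusted p = 6.1e-08). ATF3, a stress transcription factor, rose in siRNF40 (1.05, adjusted p = 6.2e-11), while CASP10, an initiator caspase, fell there (-1.0, adjusted p = 1.5e-05). PTCHD4, a patched-domain membrane protein with few reads (106, 88 and 141 in siTG2 and 64.1, 38 and 48.6 in siControl), rose in siTG2 (1.14, adjusted p = 0.0068).

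The 4 targets called lower in siRNF40 were also looked at for a 7-base word, GTCTTCA. An earlier analysis of these libraries picked it as the 3' UTR word most tied to lower transcripts in siRNF40. Of the 41 genes 6 hold it in a 3' UTR of GENCODE 29 (14.6%, against 15.4% of 13292 tested protein-coding genes): PANK1, SERTAD1, SPATA18, TP53INP1, XPC and ZMAT3. In siRNF40 the log2 fold changes had a median of -0.096 over these 6 and 0.661 over the 35 others, and over all protein-coding genes -0.304 with the word and 0.023 without it. Of the 6, PANK1 and ZMAT3 were called lower and TP53INP1 was called higher (0.48, adjusted p = 0.00031). SERTAD1, SPATA18 and XPC were not called (-0.033, 0.78 and -0.16). PANK1 and ZMAT3 hold 1 and 3 copies, and the first copy in each is shown with the word in capitals, in build GRCh38 on the minus strand, at chr10:89582822-89582848 for PANK1 and chr3:179021581-179021607 for ZMAT3.
PANK1: ccaaaacactGTCTTCAggtgaagctg
ZMAT3: tttctatgctGTCTTCAaggatggaca
The word was chosen on this same comparison, and its part in the changes of these genes was not tested. PERP, whose call was unsteady, and RRM2B, the other 2 called lower, do not hold it in a 3' UTR searched.

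In the authors' deposited table, which is their own DESeq2 fit, 29 of the 41 genes have an adjusted p under 0.05 and a positive log2 fold change in siRNF40 and 3 a negative one. For siTG2 their table gives 9 and 12. The shares over all genes of their fit were not computed, so these counts are not set against a background.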

How the data were processed

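The submitters' processing notes list Trim Galore 0.4.1, STAR 2.7.0, HTSeq 0.12.4 and DESeq2, and the builds hg19 and hg38. The gene positions in the deposited table are hg19, and the strand setting is not given in the sources used here. The values deposited by the authors are a signal, namely gene counts scaled by each library's DESeq2 size factor. All values (100%) lie within 0.001 of a whole read after division by a single step per library, so whole reads were recovered for count tests. The control columns, headed NC, were assigned to siControl, since the averages over them match the control averages in the deposited comparisons. The authors also deposited DESeq2 comparisons with log2 fold changes, Wald scores and p-values.

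The main test was limma 3.58.1 (R 4.3.3) with an intensity trend on log2(value + 1), all 9 libraries in a single fit, two-sided, over the 17663 genes with a mean of at least 10, with Benjamini-Hochberg adjustment over all of them. Fold changes on this scale understate changes of low counts. Alternatives included edgeR 4.0.16 and DESeq2 1.42.0 on recovered reads. The methods were tested on simulated data in which few genes changed, evenly up and down, in siRNF40 only and with 1 fixed spread. Far more genes were called in the real libraries, so that simulation cannot judge the dependence on scaling. Labels do not say whether replicates were separate cultures, and p-values then reflect only how much these libraries vary, which may be technical.

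The 41 members, the groups of function and the lists of other genes were chosen with earlier results of these data known, and the level of 200 counts for the background was chosen after the values were seen. Values in every library are given for MDM2 and, within a group of function, for up to 3 called genes that changed most in each knockdown and up to 2 in the direct contrast, at a mean of 50 or more. Other genes are given by summary, except that PIDD, ACER2 and SPATA18 are also given by library. From the lists of other genes, up to 3 called genes per contrast that changed most, at a mean of 50 or more, are named, with CDKN1A. Otherwise, 1 gene of these lists is not reported by name here. Promoters are from RefSeq (33 of 41 matched), transcripts from GENCODE 29.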

Additional observations from a re-analysis of the deposited data

How the results depend on the processing

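The counts of calls and the medians over the 41 genes and over all genes, and the change of each gene named, were recomputed under 20 alternatives (2 filters, 2 pseudocounts, 2 scalings, only the 6 libraries of a comparison, edgeR with and without a filter, DESeq2, a replicate block, and leaving out each of the 9 libraries). The counts of p53 targets called in siRNF40 ranged from 27 to 30 higher and 3 to 4 lower, and in siRNF40 against siTG2 from 21 to 30 higher and 4 to 6 lower. Over all genes they ranged from 3334 to 4076 higher and 3629 to 4449 lower in siRNF40. In siRNF40 against siTG2 the ranges over all genes were 3278 to 4778 and 4115 to 6343. Of the called genes, 29 of 33 in siRNF40, 12 of 21 in siTG2 and 24 of 36 in the direct contrast kept the call under every alternative. The siTG2 counts moved with scaling: with quantile normalization 14 targets were called higher, and with equal totals 16 higher and 7 lower, with 3879 of all genes higher and 1890 lower there, against 2263 and 3270. The cause was not tested. Counts by group of function or in the other lists, and counts of groups that do not overlap, were not recomputed. Values that changed sign and were called on at least 1 side of the change were CDKN1A in siTG2 (0.16 with quantile normalization), TNFRSF10B in siRNF40 against siTG2 (-0.085, quantile normalization) and USP7 there (-0.15, equal totals). Uncalled changes near 0, such as those of SERTAD1 in siRNF40 and of BAX, AEN, TRIAP1, BLOC1S2 and PMAIP1 in siTG2, also changed sign under some alternatives. Deviations of same-numbered libraries of different groups correlated at -0.0754 to 0.0813, and those of differently numbered ones at -0.0793 to 0.0916. The labels do not state a pairing, and such values cannot tell whether same-numbered libraries were made together. With the replicate block the calls were 29 higher and 3 lower in siRNF40, 9 and 11 in siTG2, and 30 and 6 in the direct contrast. Single genes in the direct contrast lost the call without single libraries: TP53INP1 (0.13 to 0.25), SESN1 (-0.25 to -0.30), CMBL (0.17 to 0.19), PERP (0.15 and 0.16), XPC (-0.19 to -0.23) and RRM2B (-0.14 to -0.25). Depth limits SPATA18, which has 19 alternatives because the filter at a mean of 50 removes it.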
